A study of Mus musculus with 9 samples.

Results

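Levels of the 3 estrogen-related receptors (Esrra, Esrrb and Esrrg) and the 2 PGC-1 coactivators (Ppargc1a and Ppargc1b) were described in nuclei of adult mouse spinal cholinergic neurons. The members are the rows of the deposited matrix with these gene symbols, and all 5 were found among its 21457 features. They were followed over 21 clusters of nuclei, with the 3 skeletal motor neuron (MN) clusters S1, S2 and S3 at the center and libraries as replicates.

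The study used 8-week-old mice of the strain Chat-IRES-Cre::Sun1-sfGFP with the genotype Chat-iCre:+/wt; SUN-SfGFP:+/wt, in which Cre made from the Chat locus switches on a green nuclear envelope protein. All groups carried both alleles, and the label also stays on in any cell that made Chat only earlier in life. Spinal cords were divided into cervical, thoracic and lumbar/sacral parts, and the sorted nuclei of 12 mice were run as 3 pools of 4 mice per region (replicate 1 mixed with 2 animals of each sex, replicate 2 male, replicate 3 female), which gave 9 libraries. The pools are therefore the biological replicates, sex cannot be told apart from the pool, and the values are nuclear RNA.

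Estrogen-related receptors are nuclear receptors with no known natural hormone. They bind a short DNA element as monomers or dimers and switch on genes of mitochondrial energy metabolism. They do so largely through PGC-1α and PGC-1β, the products of Ppargc1a and Ppargc1b, which carry no DNA-binding domain for these sites and act as the inducible partner of the receptors. In the spinal cord the receptor encoded by Esrrg is known as a mark of gamma MNs, which set the tension of muscle spindles, whereas alpha MNs drive force-producing fibers.

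The genes lie on 5 chromosomes (GRCm38, GENCODE annotation). Esrra spans chr19:6910977-6921813 on the minus strand, Esrrb spans chr12:86361117-86521628 on the plus strand, and Esrrg spans chr1:187608791-188214885 on the plus strand. Ppargc1a lies at chr5:51454250-51567726 on the minus strand.

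RefSeq (GRCm38.p6) lists promoter windows, from 250 bases before to 50 after a start, for 1 start of Esrra, 2 of Esrrb, 4 of Esrrg and 1 of Ppargc1a. Promoter windows are shown, one each, for Ppargc1a, Esrrb and Esrrg, the 3 members that were lower together in S2 in the results that follow. The capitals mark the letters TGACGT on either strand, the core of the cAMP response element.
Ppargc1a, chr5:51567676-51567975, minus strand: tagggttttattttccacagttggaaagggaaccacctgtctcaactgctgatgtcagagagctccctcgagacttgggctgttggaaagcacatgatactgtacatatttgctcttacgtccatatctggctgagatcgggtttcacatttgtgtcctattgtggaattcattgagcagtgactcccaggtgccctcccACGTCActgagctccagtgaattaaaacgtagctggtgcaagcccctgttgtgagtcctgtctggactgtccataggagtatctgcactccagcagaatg
Esrrb, chr12:86360867-86361166, plus strand: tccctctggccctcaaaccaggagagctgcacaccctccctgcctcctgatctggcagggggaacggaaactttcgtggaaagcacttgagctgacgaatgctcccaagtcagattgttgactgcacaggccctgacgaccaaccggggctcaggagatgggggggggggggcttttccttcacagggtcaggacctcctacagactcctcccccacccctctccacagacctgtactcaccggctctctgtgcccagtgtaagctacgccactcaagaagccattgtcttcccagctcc
Esrrg, chr1:187608756-187609055, plus strand: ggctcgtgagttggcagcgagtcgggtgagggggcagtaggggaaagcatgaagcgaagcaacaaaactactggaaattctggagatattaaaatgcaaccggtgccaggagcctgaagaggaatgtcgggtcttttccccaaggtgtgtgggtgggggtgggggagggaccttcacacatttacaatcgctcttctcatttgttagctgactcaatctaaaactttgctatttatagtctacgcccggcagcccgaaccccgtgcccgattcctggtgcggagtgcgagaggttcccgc
The Ppargc1a window held TGACGT once, written as its complement in the printed strand, and the other 7 windows held none. Over 32851 promoters, 7.51% held TGACGT. The full palindrome TGACGTCA, which contains it, was in 1.79% of promoters and in none of the 8 windows. The estrogen-related receptor element, searched as TNAAGGTCA on both strands, was found in 1.28% of all promoters, and its shorter core AAGGTCA in 4.72%. Neither was present in the 8 windows of the receptors and Ppargc1a.

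The matrix held 16042 cholinergic nuclei, 5054 of them in S1 (1528), S2 (1285) and S3 (2241). Median totals per nucleus ran from 4712 in lumbar/sacral replicate 1 to 16127 in cervical replicate 2, and 33 of 16009 barcode sequences occurred in more than 1 library. In skeletal MNs, Hoxc5, a Hox gene whose expression depends on position along the cord, was at 82.5 CPM (counts scaled to a common total of 1000000) in the library labelled cervical replicate 2, against 16.1 and 15.6 in the other cervical libraries. It was at 9.44 CPM in the library labelled thoracic replicate 2, against 101 and 94.5 in the other thoracic libraries. Both libraries of the male pool thus went against their region labels, so regional values are given as lumbar/sacral against the rostral libraries together. Tns1, a skeletal MN marker, was present in all 3 types. Sv2b, an alpha marker, was at 310 ± 88.5 CPM (SD, n = 9) in S2 with means of 14.9 in S1 and 7.98 in S3. Nrp2, which marks gamma MNs in this study, was at 442 ± 45.4 CPM in S3, and Gpr149, which marks type 3 MNs, was at 419.9 ± 28.0 CPM in S1. The 4 astrocyte markers together stayed at or below 9.27 CPM in every S1, S2 and S3 sum. The 4 oligodendrocyte markers summed to 60.9 to 132 CPM in S1, 52.0 to 147 in S2 and 31.6 to 55.2 in S3, mostly from Mbp, with Mog and Mobp at 0 in some sums of each type, and their part in the differences between types was not tested.

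One S2 sum stood apart in its visceral MN, interneuron and skeletal MN markers. In S2 of the library labelled cervical replicate 2 (71 nuclei), the 3 visceral MN markers summed to 257 CPM, against 0 to 53.9 in S2 of the other libraries, and the 3 interneuron markers to 188, against 4.77 to 66.8. The 3 skeletal MN markers summed to 251 CPM there, against 738 to 961, and Tns1 was at 80.5 CPM. None of the visceral MN or interneuron markers was at 0 in it. Comparisons that use this sum were also fitted without the library, an alternative chosen after seeing the data.

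Which receptors and coactivators separate the 3 skeletal types was asked first. Values are sums over the nuclei of a library and type, scaled to CPM, and differences were tested with limma on log2(CPM + 5) with library as a term. S1, S2 and S3 were fitted together, so the comparisons between them share a common estimate of the spread for each gene. A gene was called at a Benjamini-Hochberg adjusted p under 0.05 over all genes tested. The types were drawn by clustering these same nuclei, and the study looked at Esrrg when it named them. The comparisons between types are therefore a description of how the clusters differ. Esrrb, Esrrg and Ppargc1a were all lower in S2 than in both other types. Over all libraries Ppargc1b was higher in S2 than in both, but its lumbar/sacral mean was lower in S2 than in S1. Esrra differed between S1 and S3 alone. In S2 against S3, 4 of 5 members were called, beside 31.1% of 11465 genes tested. In S1 against S2, 4 of 5 were called beside 25.4%, and in S1 against S3, 2 of 5 beside 19.8%.

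**Figure D1:**
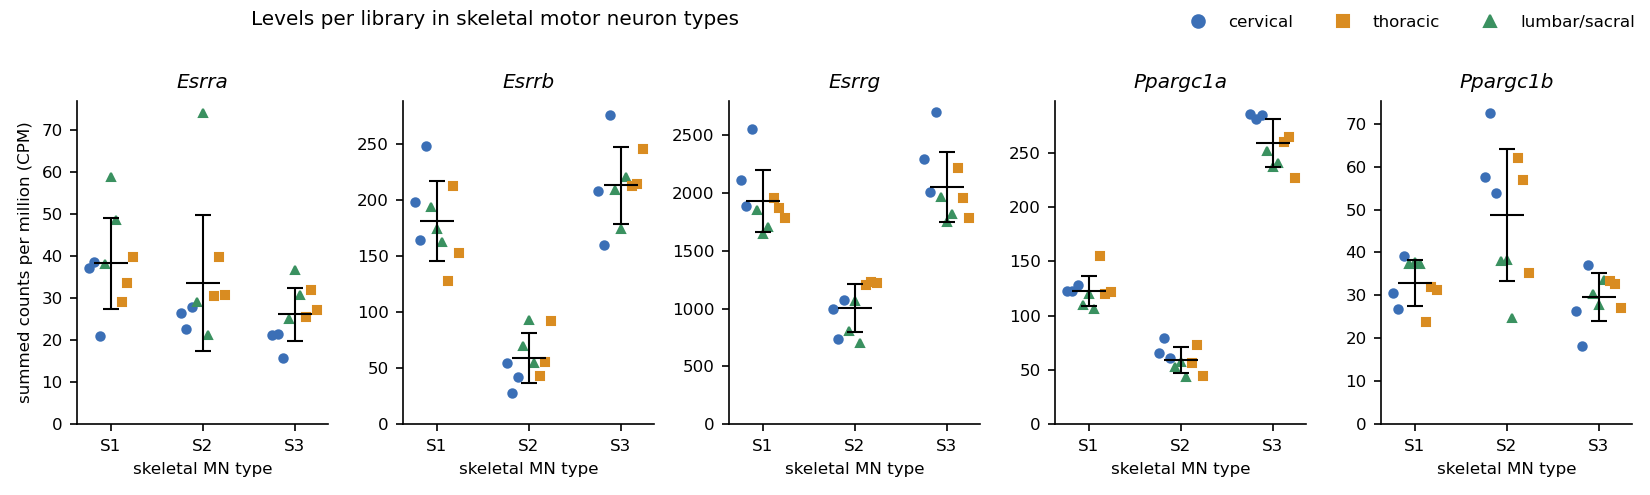
Levels of the 5 members (vertical axis, CPM) in each of 9 libraries for S1, S2 and S3 (horizontal axis), colored by labelled region, with the mean and SD in black. The S2 points of Esrrb, Esrrg and Ppargc1a lie below every S1 and S3 point, and the 3 types do not overlap for Ppargc1a.

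Esrrb encodes the receptor ERRβ, best known for its part in early embryonic and retinal cells. It ranged from 128 to 248 CPM in S1 with a median of 175, from 27.5 to 93.0 in S2 with a median of 54.7, and from 160 to 276 in S3 with a median of 213. Every S2 library was below every library of the other types, and S1 and S3 overlapped. The log2 difference was 1.60 (SE 0.14, limma adjusted p = 1.76e-09) for S1 minus S2 and -1.83 (SE 0.14, limma adjusted p = 6.07e-11) for S2 minus S3. S1 minus S3 was -0.23 (SE 0.14, limma adjusted p = 0.315), with S1 lower in 7 of 9 libraries.

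Esrrg encodes ERRγ, the receptor most linked to oxidative tissues. It was between 1647 and 2558 CPM in S1 (median 1869), between 699 and 1232 in S2 (median 1068), and between 1752 and 2698 in S3 (median 1968). S2 did not overlap the other types, and S1 and S3 covered nearly the same range. Its log2 difference was 0.96 (SE 0.09, limma adjusted p = 2.34e-09) for S1 minus S2 and -1.05 (SE 0.09, limma adjusted p = 1.89e-10) for S2 minus S3. For S1 minus S3 it was -0.09 (SE 0.09, limma adjusted p = 0.606), with S1 below S3 in 8 of 9 libraries by a mean of 125 ± 72.1 CPM (SD). That SE uses the spread shared by all 3 types. Within libraries the log2 gap of S3 over S1 alone was 0.089 ± 0.049 (SD), so the adjusted p does not measure that smaller spread. Most S2 nuclei held Esrrg: the median count per nucleus was 7 in S2, against 13 in S1 and 14 in S3. No count was found in 50 nuclei of S2, in 1 of S1 and in 0 of S3.

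Esrra encodes ERRα, the broadly expressed receptor of the family. It lay between 21.03 and 58.7 CPM in S1 (median 38.1), 21.3 and 73.9 in S2 (median 28.9) and 15.6 and 36.6 in S3 (median 25.5). The 3 types overlapped, and the highest value in all 3 came from lumbar/sacral replicate 2. S1 exceeded S3 in 9 of 9 libraries, with a log2 difference of 0.46 (SE 0.13, limma adjusted p = 0.0108). In limma that call was lost without replicate 1 (adjusted p = 0.126) or replicate 3 (adjusted p = 0.0564) while the log2 difference stayed at 0.47 and 0.46. The difference was 0.21 (adjusted p = 0.285) for S1 minus S2 and 0.26 (adjusted p = 0.153) for S2 minus S3 in limma.

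Ppargc1a encodes PGC-1α, the main inducible driver of mitochondrial biogenesis. It was the member that set all 3 types apart, at 106 to 155 CPM in S1 (median 122), 43.3 to 79.5 in S2 (median 57.2) and 227 to 286 in S3 (median 259.9). No value of one type reached the range of another. The log2 differences were 1.01 (SE 0.08, limma adjusted p = 1.5e-10) for S1 minus S2, -1.05 (SE 0.08, limma adjusted p = 3.65e-11) for S1 minus S3 and -2.06 (SE 0.08, limma adjusted p = 1.23e-16) for S2 minus S3. The direction was the same in 9 of 9 libraries for each pair.

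Ppargc1b encodes PGC-1β, the second coactivator, which works on similar partners and is less tied to acute stimuli. It lies at chr18:61298136-61400431 on the minus strand (GRCm38). It ran from 23.7 to 39.2 CPM in S1 (median 32.0), from 24.8 to 72.6 in S2 (median 53.8) and from 18.3 to 37.0 in S3 (median 30.4). S2 was higher than S3 in 8 of 9 libraries, but the ranges overlapped. Over the rostral libraries the mean was 56.3 CPM in S2, 30.6 in S1 and 29.1 in S3. Over the lumbar/sacral libraries it was 33.7 CPM in S2, 37.4 in S1 and 30.6 in S3. The log2 difference was 0.60 (SE 0.16, limma adjusted p = 0.00405) for S2 minus S3 and -0.46 (SE 0.16, limma adjusted p = 0.0301) for S1 minus S2. S1 minus S3 did not pass the test (0.14, limma adjusted p = 0.694). The S2 minus S3 call was lost without replicate 1 (0.55, limma adjusted p = 0.0698). The S1 minus S2 call was lost without replicate 1 (limma adjusted p = 0.301), without replicate 2 (0.0913), without the male cervical and thoracic libraries (0.112), with scaling by median ratios (0.0535) and with no filter on low values (0.0519). The highest S2 value, 72.6 CPM, came from the cervical replicate 2 sum with high visceral MN and interneuron markers, and those classes hold 44.1 and 65.9 CPM of Ppargc1b. Without that library Ppargc1b was still called, with log2 differences of 0.46 (limma adjusted p = 0.00675) for S2 minus S3 and -0.36 (limma adjusted p = 0.0346) for S1 minus S2. The calls for Esrrb, Esrrg and Ppargc1a were kept in all of these fits. The lowest S2 value of Esrrb and the highest S2 value of Ppargc1a came from the same sum, and without it their S2 minus S3 differences were -1.77 and -2.10.

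**Figure D2:**
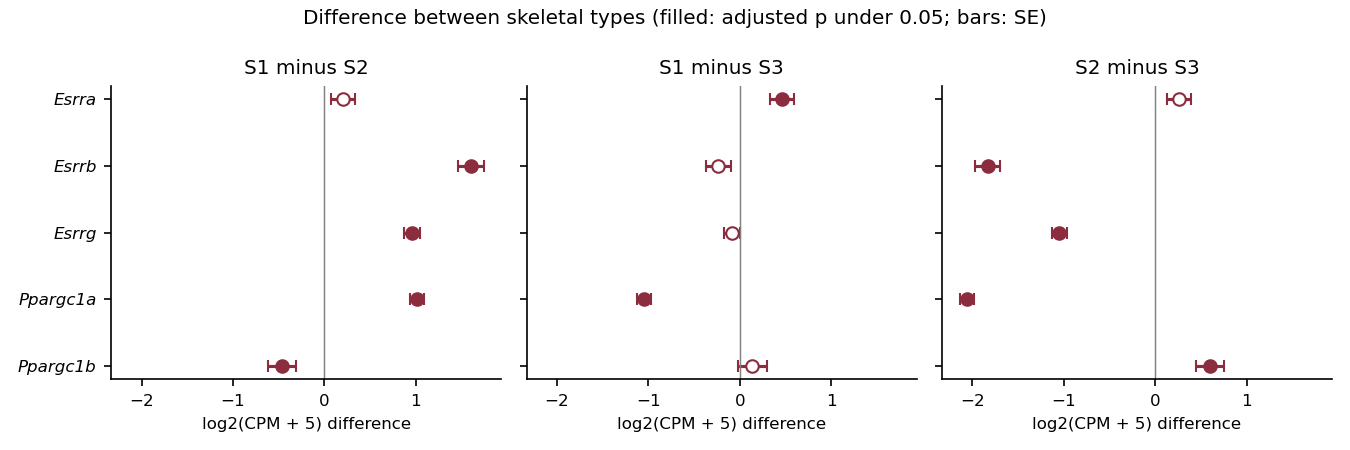
Difference in log2(CPM + 5) (horizontal axis) between pairs of skeletal MN types for each member (vertical axis), with SE bars over 9 libraries and filled points at an adjusted p under 0.05. Esrrb, Esrrg and Ppargc1a are lower and Ppargc1b is higher in S2 than in either other type.

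Shares of nuclei with a count were compared after each nucleus was thinned to 4600 counts, which left out 8.63% of nuclei. The median total was 4712 in lumbar/sacral replicate 1 and 5701 to 16127 in the others, so the loss need not be even over libraries. The thinned values were already depth-corrected, so thinning does not match the original depth of the nuclei. Esrrb was detected in 54.6 ± 3.50% of S1 nuclei (SD, n = 9 libraries), 21.8 ± 8.21% of S2 nuclei and 59.8 ± 6.21% of S3 nuclei. In visceral MNs, which hold little Esrrb, the share was 1.76 ± 0.83%, well below all 3 types. Without thinning the shares were 74.2%, 35.0% and 80.6% in S1, S2 and S3 and 2.89% in visceral MNs. Ppargc1a was detected in 41.1 ± 3.64%, 24.6 ± 5.48% and 69.5 ± 4.02% of thinned S1, S2 and S3 nuclei, beside 11.1 ± 2.29% in visceral MNs, and in 61.6%, 40.0% and 84.5% before thinning. At the thinned total the S2 range of either gene did not overlap S1 or S3, while before thinning the S2 range of Ppargc1a overlapped both. Esrrg was found in 99.9%, 93.9% and 100% of thinned S1, S2 and S3 nuclei. For Esrra and Ppargc1b the thinned shares were 10.8% to 18.6% in all 3 types and the ranges overlapped.

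Nuclei with counts of both Esrrb and Ppargc1a made up 43.4 ± 11.5% of S1 nuclei (SD, n = 8 libraries), 12.6 ± 3.99% of S2 (n = 9) and 66.7 ± 13.7% of S3 (n = 8). Within a type, the share with Ppargc1a hardly depended on Esrrb. It was 59.7% with and 61.2% without Esrrb in S1, 38.0% and 40.8% in S2, and 83.4% and 79.4% in S3, and each gap was smaller than its SD over libraries (9.23, 14.6 and 9.09 percentage points). Over 15 combinations of gene pair and type, 1 gap exceeded its SD. In S3, Ppargc1b was found in 21.9% of nuclei with Ppargc1a and in 12.6% of those without, a gap of 9.24 ± 6.71 points (SD) that was positive in 7 of 7 libraries. Median totals per nucleus averaged 7643 with and 7291 without Ppargc1a there, and their part in the gap was not tested. These are totals of depth-corrected values and do not give the original depth of the nuclei. On summed counts the same pair did not pass (log2 difference 0.45, limma adjusted p = 0.53).

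Splits of S2 by these genes were added after the data were seen. Counts were summed within each library over nuclei with and without the gene, and the splitting gene was left out. The median S2 nucleus held 0 counts of Esrrb and of Ppargc1a, with an upper quartile of 1 for each. A nucleus without a count may therefore still hold the RNA, and the splits compare detected with undetected nuclei. The median count of Esrrb was 1 in S1 and in S3, so their splits are not like for like with that of S2. With Esrrb as the split (408 nuclei against 877, in 9 libraries), 2 of 11498 genes were called, which is 0.0174%, and Esrrg was one of them. Esrrg ran from 856 to 1352 CPM in the nuclei with Esrrb (median 1283) and from 638 to 1152 in those without (median 932), and was higher with Esrrb in 9 of 9 libraries. The log2 difference was 0.34 (SE 0.05, limma adjusted p = 0.0137), but it did not pass without replicate 1 (0.38, adjusted p = 0.268), 2 (0.31, adjusted p = 0.0601) or 3 (0.34, adjusted p = 0.186). The other gene was Cdh20, which encodes a cadherin, at a log2 difference of 0.53 (limma adjusted p = 0.00256). In S1 and S3 no gene was called on this split by limma, with 751 and 703 genes at an unadjusted p under 0.05, and Esrrg differed by 0.05 and 0.08. Without replicate 1 or 2 no gene was called in S2, and without cervical replicate 2 there were 10, with Esrrg at 0.33 (limma adjusted p = 0.014).

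With Ppargc1a as the split of S2 (390 nuclei against 798, in 7 libraries), 8 of 11327 genes were called (0.0706%) and none was another member. Rora, a nuclear receptor of the ROR family, was higher with Ppargc1a by 0.32 and Kcnc2, a potassium channel gene, by 0.60, while Prkcb, a protein kinase C gene, was lower by 0.78 on the log2 scale, each in 7 of 7 libraries. Without replicate 3 no gene was called. Chodl and Kcnq5, known from fast alpha MNs, were lower with Ppargc1a in 7 of 7 libraries, at log2 differences of -0.71 (limma adjusted p = 0.264) and -0.91 (limma adjusted p = 0.0601), and neither passed the test. In S3, 4 genes were called on the Ppargc1a split (0.0383%), all lower with it: Zfp804b, Unc13c, March1 and Trpm3. That count was 0 without replicate 1, 2 without replicate 2 and 12 without replicate 3. None was called in S1 by limma, with 605 at an unadjusted p under 0.05.

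Next, the skeletal types were set against the other cholinergic neurons. Summed over S1, S2 and S3, all 5 members were called against visceral MNs, where 66.7% of 11292 genes were called, and all 5 against interneurons, where 59.5% were. Esrrb showed the largest gap of the 5: it was at 108 to 202 CPM in skeletal MNs (median 166), 1.99 to 5.62 in visceral MNs (median 4.10) and 2.37 to 6.18 in interneurons (median 3.13). On the log2(CPM + 5) scale this was 19.2-fold and 19.4-fold higher, in 9 of 9 libraries each. The Esrrb gap depends on the pseudocount, since the other classes are near its size: over the alternatives run, the log2 difference was 2.93 to 5.15 against visceral MNs and 2.94 to 5.18 against interneurons. Esrrg was 10.9-fold higher than in visceral MNs, which held 121 to 220 CPM, and 5.12-fold higher than in interneurons, which held 279 to 441. Ppargc1a was 5.55-fold higher than in visceral MNs and 2.49-fold higher than in interneurons, and skeletal MNs did not overlap either other class for any of these 3 genes.

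Ppargc1b went the other way. It was at 29.6 to 42.4 CPM in skeletal MNs (median 35.2), 33.6 to 53.5 in visceral MNs and 49.7 to 79.2 in interneurons (median 71.9), and was lower in skeletal MNs than in interneurons in 9 of 9 libraries without overlap. The log2 difference was -0.77 (SE 0.09, limma adjusted p = 2.76e-07) against interneurons and -0.24 (SE 0.09, limma adjusted p = 0.0271) against visceral MNs. The second call was lost without replicate 2 (-0.20), replicate 3 (-0.15) or lumbar/sacral replicate 1 (-0.22). Esrra was higher than in visceral MNs by 0.25 (limma adjusted p = 0.00964) and lower than in interneurons by 0.27, and both calls were lost without replicate 1 (limma adjusted p = 0.142 and 0.0537). The call against interneurons was also lost without replicate 2 (limma adjusted p = 0.106) and without the male cervical and thoracic libraries (adjusted p = 0.0848).

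**Figure D3:**
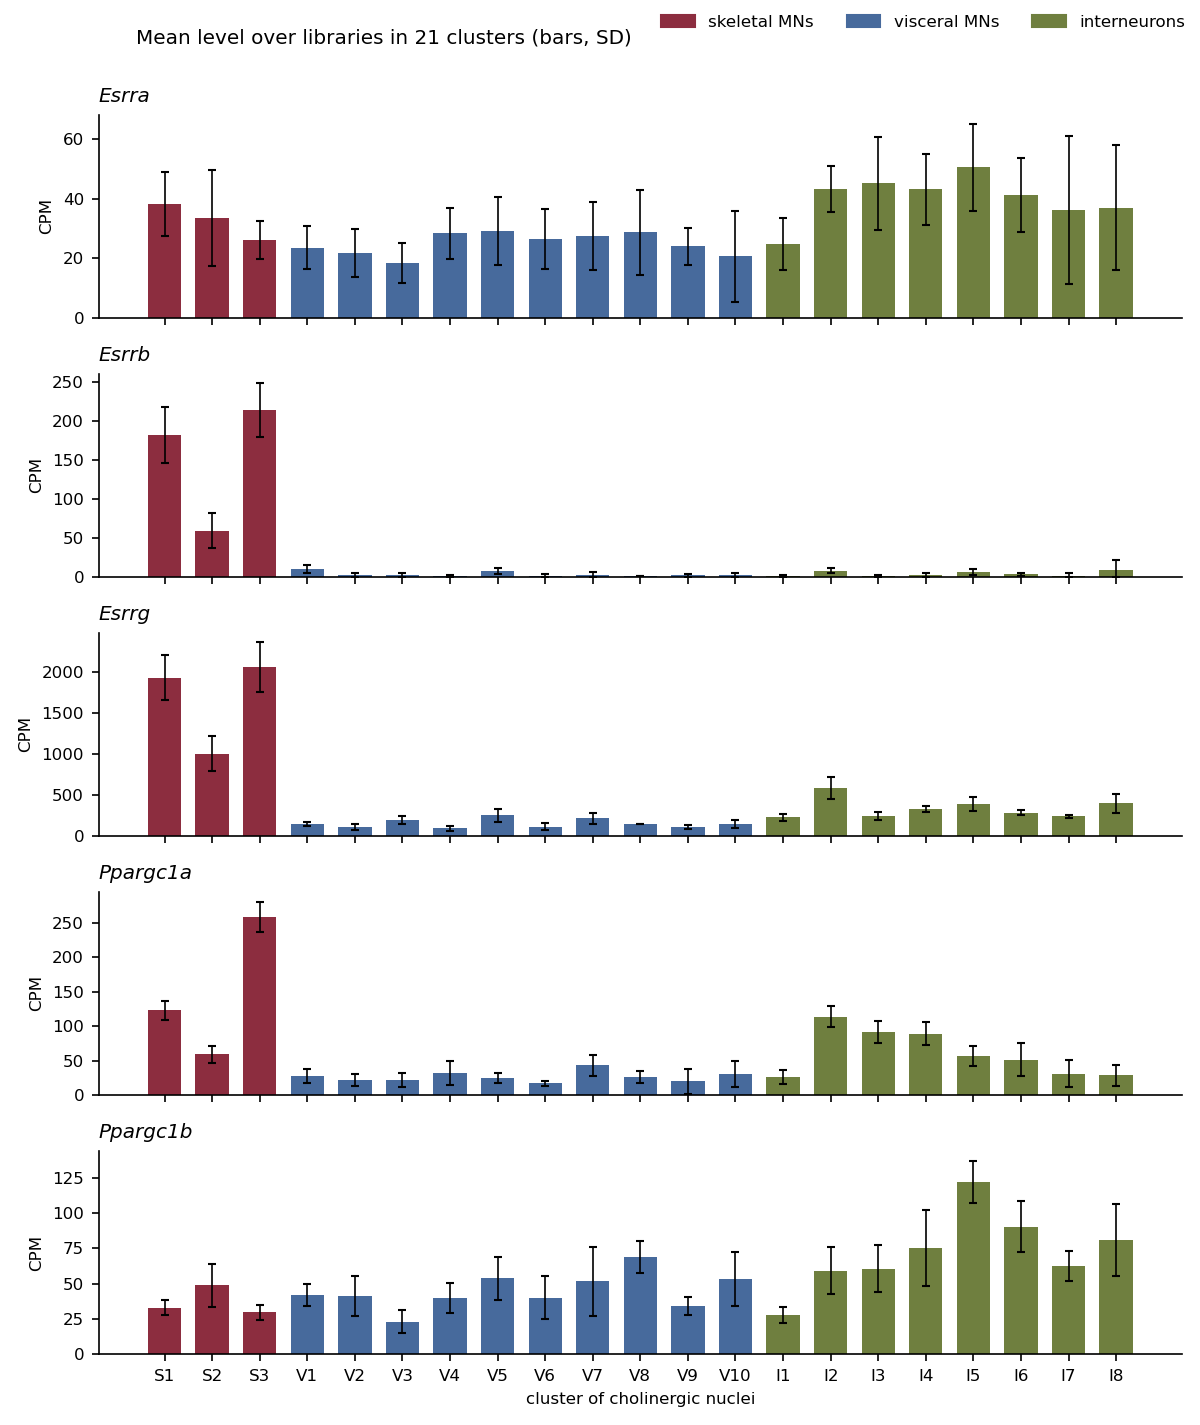
Mean CPM over libraries (bars, SD as lines) of each member in the 21 clusters, colored by class, each panel with its own axis from 0. Esrrb and Esrrg are highest in S3 and S1, Ppargc1a in S3, and Ppargc1b and Esrra in the interneuron cluster I5.

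Over the 21 clusters, neighbors in the order of a gene were said to differ where the mean log2 gap within libraries exceeded its SD. Esrrb ran from S3 (214 ± 34.5 CPM) and S1 (182 ± 35.9), which did not differ, to S2 (59.1 ± 22.3) and then to V1 (9.89 ± 5.18), both steps beyond the spread. The remaining 17 clusters were at or below 9.22 CPM. Among them only the step from V8 to V6 exceeded its spread, at levels of 1.27 and 1.23 CPM and in 2 shared libraries. Esrrg fell in 4 steps beyond the spread, from S3 (2056) to S1 (1931), S2 (1004), I2 (584 ± 135) and I8 (396 ± 113). Every other interneuron cluster and V5 lay at 226 to 385 CPM, the lowest was V4 at 90.0 ± 27.5, and the only further step beyond the spread was from V8 to V6, again in 2 libraries.

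Ppargc1a fell beyond the spread from S3 (259 ± 21.9) to S1 (123 ± 13.9), which did not differ from the interneuron cluster I2 (114 ± 15.6). I2 exceeded I3 (91.6 ± 15.6), and I4 (89.2 ± 16.8) exceeded S2 (59.2 ± 12.2). Next to S2 in the order was I5 (56.6 ± 15.1). The lowest cluster was V6 at 16.7 ± 3.15 CPM. For Ppargc1b the order began with I5 (122 ± 14.9), which exceeded I6 (90.4 ± 18.1). S2 was at 48.8 ± 15.4, S1 at 32.9 ± 5.39 and S3 at 29.6 ± 5.52, and V4 exceeded V9. The lowest was V3 at 23.0 ± 8.24. Esrra ran from I5 (50.6 ± 14.6) to V3 (18.5 ± 6.65), and no neighbors differed beyond their spread.

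Likeness of pattern over the 21 clusters is given as a description, since the clusters share libraries and depth. Pearson's r of mean log2 levels was 0.89 for Esrrb and Esrrg, 0.83 for Esrrg and Ppargc1a, 0.69 for Esrrb and Ppargc1a and 0.73 for Esrra and Ppargc1b. It was lower for the remaining pairs: 0.54 for Esrra and Ppargc1a, 0.43 for Esrra and Esrrg, 0.12 for Esrra and Esrrb, and, for Ppargc1b, 0.0917 with Ppargc1a, -0.0058 with Esrrg and -0.25 with Esrrb. Among 14465 genes, those with the pattern most like Esrrg were Dexi (0.955), Asb13 (0.936), Slc4a3 (0.927), Kcna1 (0.918) and Got1 (0.909). Those most like Ppargc1a were Mpc1 (0.915), Gmcl1 (0.909), Slc4a3 (0.878), Pdss1 (0.854) and Cplx1 (0.848). For Esrrb they were Npas1, Pou3f2, AA986860, Sox5os4 and Hs3st3a1 (0.932 to 0.953). For Esrra they were Lekr1, Lrpprc, Habp4, Cyp7b1 and Fn3k (0.855 to 0.877), and for Ppargc1b Dydc2, Pde6a, Sar1b, 2300009A05Rik and Foxred1 (0.791 to 0.833).

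Region and sex did not define the members or the types, and these comparisons run across libraries. In no type was a member called between lumbar/sacral and rostral libraries. Hoxd11, another Hox gene, was at 0 CPM in skeletal MNs of every rostral library and at 33.8, 37.3 and 27.2 CPM in the lumbar/sacral ones. It was called in S3 (log2 difference 3.28, limma adjusted p = 0.000464) but not in S1 (2.40, limma adjusted p = 0.0546) or S2 (2.58, limma adjusted p = 0.0571). A member that was not called can therefore still differ by region. Over all genes, limma called 0 of 10025 in S1 and 0 of 10387 in S2 (0%), with 439 and 245 at an unadjusted p under 0.05, and 7 of 9841 in S3 (0.0711%). The median log2 difference of all genes was itself shifted, by 0.10 in S1, 0.13 in S2 and 0.14 in S3. Median totals per nucleus were 4712, 7175 and 5701 in the lumbar/sacral libraries and 7087 to 16127 in the rostral ones. Region thus went largely with these totals, whose part in the differences was not tested. They are totals of depth-corrected values and do not give the original depth of the nuclei. With the mouse pool as a replicate block, 23, 1 and 12 genes were called, and again no member.

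The widest regional gap was that of Ppargc1b in S2. The lumbar/sacral libraries were at 38.1, 38.2 and 24.8 CPM and the rostral libraries between 35.2 and 72.6, so all but 1 rostral library were above the lumbar/sacral ones. The log2 difference was -0.66 (SE 0.25, unadjusted p = 0.0227 and adjusted p = 0.975 in limma), -0.80 with scaling by median ratios and -0.60 without cervical replicate 2. In S1 and S3 Ppargc1b differed by 0.27 and 0.08. The difference between the S2 and S3 effects was -0.74 (SE 0.32, adjusted p = 0.999 in limma), where 0 of 11098 genes were called and 280 had an unadjusted p under 0.05.

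Esrra was at 38.1, 58.7 and 48.6 CPM in the lumbar/sacral libraries of S1 and between 21.03 and 39.6 in the rostral ones, with 1 lumbar/sacral value inside the rostral range. Its log2 difference was 0.49 (SE 0.21, adjusted p = 0.989 in limma). It was 0.27 in S2, where lumbar/sacral replicate 2 alone was high and the sign turned without replicate 2 (-0.18), and 0.32 in S3. Esrrb differed by -0.02, 0.48 and -0.11 in S1, S2 and S3. For Esrrg the differences were -0.22, -0.33 and -0.21, and for Ppargc1a -0.19, -0.27 and -0.13, negative in all 3 types, and none passed the test.

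**Figure D4:**
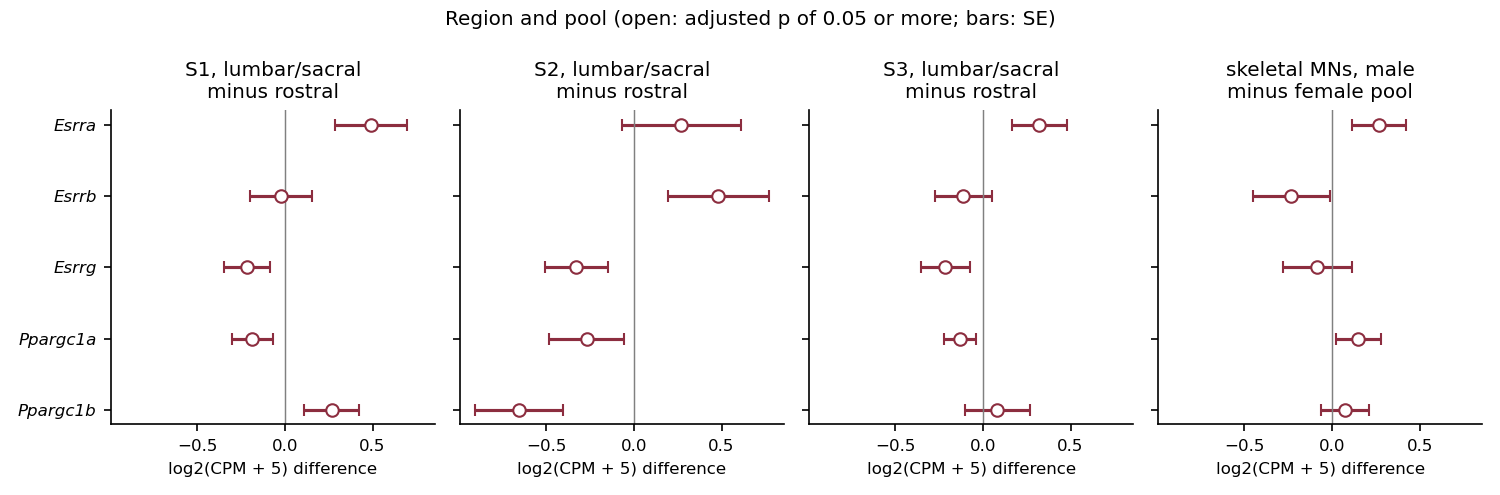
Difference in log2(CPM + 5) (horizontal axis) of each member between lumbar/sacral and rostral libraries in S1, S2 and S3, and between the male and female pools in all skeletal MNs, with SE bars. All points are open, since no adjusted p was under 0.05, and the widest is Ppargc1b in S2 at -0.66.

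In the male against the female pool, 3 libraries each and with region as a term, no member was called, beside 7 of 9660 genes (0.0725%). S1, S2 and S3 were summed together here, so the mix of types was not held fixed. The 4 alpha markers had a median log2 difference of -1.14, beside -0.02 for all genes, and none of them was called. The comparison was also fitted in S2 nuclei alone, where no member was called. The part of the mix of types in the member values was not tested. Esrrb was at 108, 195 and 166 CPM in the male libraries labelled cervical, thoracic and lumbar/sacral and at 202, 193 and 150 CPM in the female ones. The pools overlapped, and the log2 difference was -0.23 (SE 0.22, limma adjusted p = 0.666). The other members differed by between -0.09 and 0.27. The male cervical and thoracic libraries are those whose Hoxc5 goes against the label, and the comparison was refitted without each of them. Without the male cervical library Esrrb differed by 0.0837 and Esrrg by 0.16, both opposite in sign to the fit with all libraries, and without the male thoracic library by -0.36 and -0.18. No member was called in either fit.

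The partners and targets of the receptors were then taken as 6 lists, and in each the counts are of genes tested. They are to be read against the shares of all genes called, in either direction, which were 31.1% for S2 against S3, 25.4% for S1 against S2, 19.8% for S1 against S3, 66.7% against visceral MNs and 59.5% against interneurons. Of 21 coregulators and receptor partners, 6 were higher and 2 lower in S2 than in S3 (31.1% of all genes called), with a median log2 difference of 0.06 beside 0.01 for all genes. Nrip1, a corepressor that opposes PGC-1α at these receptors, was lower in S2 by -2.20 (SE 0.17, limma adjusted p = 7.4e-11). It was also lower in S1 than in S3 (-1.53) and higher in S1 than in S2 (0.67), the same order as Ppargc1a. Rxrg, a retinoid X receptor, was higher in S2 than in S3 (0.97), as was the estrogen receptor gene Esr1 (0.73). The corepressor Ncor1 did not pass (-0.15, limma adjusted p = 0.0952). In S1 against S2, 5 of 21 were higher and 2 lower, and in S1 against S3, 3 and 2. Against interneurons, 10 of 20 were higher in skeletal MNs and 5 lower, led by Nrip1 (2.39), Pparg (1.90) and Thrb (1.74), and against visceral MNs 7 and 7.

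Of 15 mitochondrial biogenesis factors, 2 were higher and 2 lower in S2 than in S3, beside 31.1% of all genes called. Mef2c, a transcription factor known to act on the Ppargc1a gene in muscle, was higher (1.09). Tfb2m, a mitochondrial transcription factor, was lower (-0.59), as was Gabpb1, a subunit of nuclear respiratory factor 2 (-0.44). Nrf1, Gabpa and Tfam, classic relays of PGC-1α to the mitochondrial genome, differed by -0.03, 0.14 and -0.20 and did not pass. In S1, 2 were higher than in S2 and none lower, and 1 was higher than in S3. Against visceral MNs 5 of 14 were higher and 5 lower, beside 66.7% of all genes called, and against interneurons 3 and 4, beside 59.5%.

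Of 29 genes of the tricarboxylic acid (TCA) cycle and fuel oxidation, 11 were higher in S1 than in S2 and 2 lower, beside 25.4% of all genes called, with a median of 0.21 beside 0.02 for all genes. The largest was Mdh2, a malate dehydrogenase (0.64), then Idh3a, a subunit of isocitrate dehydrogenase (0.61), and Got1, an aspartate aminotransferase (0.56), while Cpt1a, which admits fatty acids to mitochondria, was lower (-0.49). In S2 against S3, 8 were lower and 2 higher (median -0.15), with Mdh2 at -0.74, Ckmt2, a mitochondrial creatine kinase, at 0.70 and Mdh1 at -0.45. In S1 against S3, 4 of 29 were higher in S1 and none lower, led by Etfa (0.62), and the median was -0.0028 beside 0.02 for all genes. Against visceral MNs 21 of 28 were higher in skeletal MNs and 3 lower (66.7% of all genes called), and against interneurons 16 and 2 (59.5%). Cpt1a was 2.54 and 1.97 higher, on the log2 scale. Etfa, an electron carrier of fatty acid oxidation, was 1.49 higher than in visceral MNs, and Acadl, an acyl-CoA dehydrogenase, 1.04 higher than in interneurons.

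**Figure D5:**
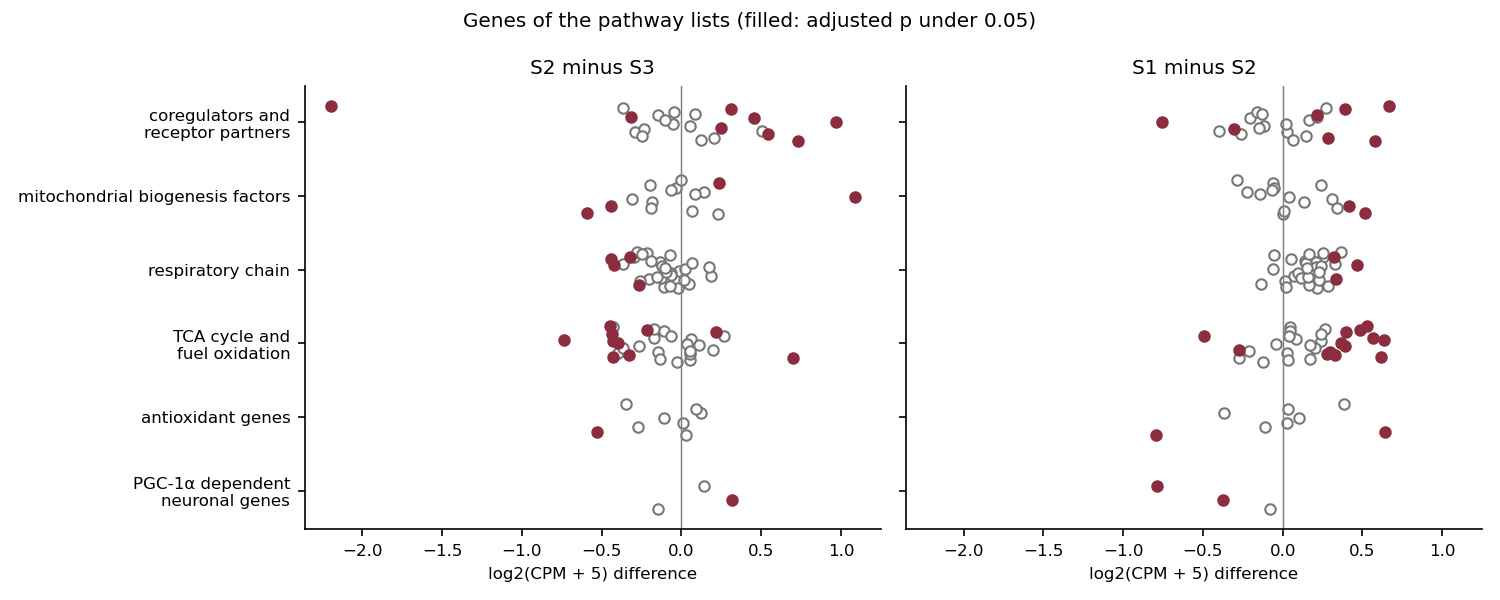
Difference in log2(CPM + 5) (horizontal axis) of each tested gene of the 6 lists for S2 minus S3 and S1 minus S2, with filled points at an adjusted p under 0.05. Respiratory chain genes lie between -0.44 and 0.18 in S2 minus S3, and Nrip1 is the point at -2.20.

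Of 31 respiratory chain genes, 4 were lower and none higher in S2 than in S3, a smaller share than the 31.1% of all genes called. These were Cyc1 (-0.44) and Sdha (-0.32), of complexes III and II, and Atp5b (-0.43) and Atp5o (-0.27), of the ATP synthase. The median log2 difference of the list was -0.12, beside 0.01 for all genes. In S1, 3 were higher than in S2 (Atp5b, Atp5c1 and Sdha), and no gene was called against S3. The list medians were 0.19 for S1 against S2 and 0.04 for S1 against S3, each beside 0.02 for all genes. Against visceral MNs 14 of 30 were higher and 3 lower, beside 66.7% of all genes called, with Cox5a at 0.50. Against interneurons 5 were higher and 3 lower, a smaller share than the 59.5% of all genes called. The list medians were 0.16 and -0.0026 in the same order, beside -0.04 and 0.02 for all genes. Among 8 antioxidant genes, Sod2, the mitochondrial superoxide dismutase, was lower in S2 than in S3 (-0.53) and higher in S1 than in S2 (0.64). Cat, the peroxisomal catalase, was lower in S1 than in S2 (-0.79) and S3 (-0.76).

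The last list holds neuronal genes known to depend on PGC-1α in other neurons. Syt2, a calcium sensor of transmitter release, was higher in S2 than in S3 (0.31, limma adjusted p = 0.000396), where Ppargc1a was lower. Nefh, a heavy neurofilament, and Cplx1, a complexin, did not differ beyond the test (0.14 and -0.15). In S1, Nefh was lower than in S2 (-0.79) and S3 (-0.64), Syt2 was lower than in S2 (-0.37) and Cplx1 was lower than in S3 (-0.23). All 3 genes were higher in skeletal MNs than in visceral MNs, Cplx1 by 1.82, and than in interneurons, Nefh by 1.80. Pvalb did not pass the filter on low values. In the regional and pool comparisons no gene of the 6 lists was called.

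Of 101 genes of these lists with a RefSeq promoter, 3 held the element TNAAGGTCA (2.97%), beside 1.43% of 27025 genes. They are shown with up to 10 bases on each side, in the gene's orientation and with the element, on the opposite strand in each, in capitals.
Atp5g3, chr2:73911360-73911388, minus strand: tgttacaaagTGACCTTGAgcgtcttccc
Sdhd, chr9:50603800-50603823, minus strand: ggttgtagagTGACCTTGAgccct
Syt2, chr1:134646435-134646463, plus strand: gcagtttcccTGACCTTGAcgggaggcga
The first of these lies 52 bases before the start of Atp5g3, a subunit gene of the ATP synthase. The second lies after the start of Sdhd, a complex II gene. The third lies 167 bases before a start of Syt2, which was called between S2 and S3, while Atp5g3 was not (-0.30, limma adjusted p = 0.188). A match of letters is not a bound site.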

How the data were processed

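Nuclei sorted for the Chat-driven reporter were sequenced as 10x 3′ libraries. Per the submitters' processing notes, reads were processed with Cell Ranger 3.1.0 against mm10, and the notes also name Seurat and DESeq2. The deposited values are a score: the authors corrected counts for depth with SCTransform and rounded them to whole numbers. The deposited annotation, given as other columns, assigns library and cluster. Since corrected counts are not raw counts, no count model was run. The members and gene lists were chosen with earlier results of these data known.

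For each library and cluster with at least 10 nuclei, values were added up, scaled to CPM and tested with limma 3.58.1 (R 4.3.3, trend) on log2(CPM + 5). Genes needed 10 CPM in 3 sums. Calls were Benjamini-Hochberg adjusted p under 0.05 over all genes. Summaries used Python 3.11.15. The correction narrows depth differences, and precision is limited by 9 libraries. Doublets were not removed here. Columns of other samples numbered 0. The same pools of mice gave all regions, so replicate numbers pair libraries: the correlation of deviations had a median of 0.487 for same-numbered pairs (n = 27, from -0.22 to 0.833) and -0.326 for others (n = 54).

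The text names the 5 members, up to 3 called genes with the largest change per list and comparison, Nrf1, Tfam, Gabpa, Nrip1, Ncor1, Pvalb, Syt2, Cplx1 and Nefh, and the 5 genes most like each member. Genes named from splits and other list members were chosen after their values were seen. Alternatives varied the pseudocount, scaling, filter, minimum nuclei, libraries and replicate block.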

Additional observations from a re-analysis of the deposited data

Results flagged for a closer look

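Of 100 groups of libraries, 12 held a library far from the others for its group's range. The nominal share of the rule is 1 in 20. That share need not hold where counts are few, so no excess is read from the number flagged. In skeletal types, Esrra in S2 was at 73.9 CPM in lumbar/sacral replicate 2 (31 counts in 58 nuclei) against 21.3 to 39.7 in the others. Ppargc1a in S1 was at 155 CPM in thoracic replicate 1 against 106 to 128.

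For Esrrb the distant values lay in clusters that hold little of it. It was at 15.9 CPM in V5 of lumbar/sacral replicate 2 (8 counts), 5.61 in V9 of cervical replicate 3 (1 count), 4.25 in I3 of lumbar/sacral replicate 3 (2 counts) and 8.89 in I7 of lumbar/sacral replicate 1 (2 counts). It was also at 15.2 CPM in I5 of cervical replicate 3 (10 counts) and at 37.0 in I8 of the same library (6 counts in 16 nuclei). Esrrg in that I8 sum was at 666 CPM against 315 to 421 in the other libraries.

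In visceral clusters, Ppargc1a was at 72.1 CPM in V4 of cervical replicate 3 against 12.2 to 41.2. Ppargc1b was at 72.1 CPM in V2 of cervical replicate 3 against 18.7 to 44.9, and at 64.3 in V4 of thoracic replicate 1 against 28.3 to 45.7.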

How the results depend on the processing

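Of 847 alternative values, 95 changed direction, side of the threshold or size. Differences of Esrrb, Esrrg and Ppargc1a called between types and classes stayed called in the alternatives run. Leaving out 1 replicate gave 1650 to 4056 called genes for S1 against S2 (2908 with all), 1456 to 2371 for S1 against S3 and 2221 to 4616 for S2 against S3. Without the male cervical and thoracic libraries, an alternative chosen after seeing the data, S1 against S3 gave 2522 and S2 against S3 4631. Without cervical replicate 2 alone, also chosen after seeing the data, the 3 type comparisons gave 4286, 2829 and 4994 in the same order, the regional ones 9, 0 and 3 in S1, S2 and S3, the difference of effects 2, and the Esrrb split of S2 10.

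For lumbar/sacral against rostral, leaving out a replicate gave 0 genes in each type. S1 gave 8 with a pseudocount of 20, 9 with no filter, 2 without the male pair of libraries and 23 with the replicate block. S2 gave 1 with the block. S3 gave 3 with median ratios, 2 with a pseudocount of 1, 17 with no filter, 3 without the male pair and 12 with the block, which changed no call of a member. The difference between S2 and S3 effects gave 0 to 1, and 4 without the male pair. Male against female gave 0 to 1329 without single libraries and 3 in S2 alone. The 1314 and 1329 genes without cervical replicate 2 or 3 come from 5 libraries with 1 residual degree of freedom.

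Signs turned for uncalled members. In S1, Esrrb ran from -0.174 to 0.0886 without single replicates and was 0.0043 without the male pair. In S2, Esrra ran from -0.18 to 0.60. In S3, Ppargc1b was -0.0599 with median ratios, -0.0078 without the male pair, -0.0243 without cervical replicate 2 and 0.11 without replicate 1. For the difference of effects, Esrra ran from -0.46 to 0.35 and was 0.0035 with a pseudocount of 20, and Esrrg ran from -0.345 to 0.0473. Between sexes, Esrrb ran from -0.425 to 0.0837 and Esrrg from -0.24 to 0.16, with 0.0258 in S2 alone. The cause was not tested.

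On the splits, a pseudocount of 20 called 1 gene for each S1 split, 17 for Esrrb in S2 and 8 for Ppargc1a in S3. Median ratios called 11, 5 and 7 for Esrrb in S2, Ppargc1a in S2 and Ppargc1a in S3. Without single replicates the Ppargc1a splits gave 0 to 2 in S1, 0 to 7 in S2 and 0 to 12 in S3, and the Esrrb split of S2 0 to 2. Neighbors beyond their spread numbered 1 for Esrra with median ratios (0 to 1 without single replicates), 5 for Esrrb and 1 for Ppargc1b with at least 30 nuclei, 2 to 6 for Ppargc1a and 2 to 4 for Ppargc1b without single replicates.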
